A study of Rattus norvegicus with 23 samples.

Results

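The genes described here make, sense, move and export cholesterol. A list of 33 gene symbols was looked up in the deposited table of rat lung expression, and all 33 were found among its 19249 rows. All 33 also passed the filter on low values, a mean normalized count of at least 10 over all libraries, and entered the test with 14414 genes in total. By role, 8 encode enzymes of the mevalonate steps and their branches, 3 the steps from farnesyl pyrophosphate through squalene to lanosterol, and 8 the steps after lanosterol. Another 5 encode the sterol sensing machinery, 4 transport or esterify cholesterol, and 5 belong to the liver X receptor and export branch.

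The libraries came from lungs of male rats that breathed filtered air, low eucalyptus wood smoke (target carbon monoxide of 10 ppm) or high eucalyptus wood smoke (target of 20 ppm). Smoke was given to the whole body on 4 days of week 1 and, after 3 days off, on 3 days of week 2. With 8 rats planned per group, values were deposited for 7 air, 8 low smoke and 7 high smoke libraries, each from its own rat, and 1 further sample labelled high smoke and marked as dropped for quality was not analysed here. The extraction protocol names a filtered air sample as the one dropped, which differs from that label, and groups here follow the treatment label of each sample. Strain and age are not given in the sources used here, and carbon monoxide is a target for the chamber, not a dose measured in the animals.

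Cells make cholesterol from acetyl-CoA through mevalonate, squalene and lanosterol, and the transcription factor SREBP2 drives the genes of this route when sterols are scarce. SCAP carries SREBP2 out of the endoplasmic reticulum, and the INSIG proteins hold SCAP back when sterols are plentiful. Oxysterols activate the liver X receptors, which raise genes for export and for remodelling membrane lipids. In the lung, alveolar type 2 cells pack cholesterol into surfactant and alveolar macrophages clear it.

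The promoters of 5 of the genes whose expression differed between high smoke and air are printed, because they include both INSIG genes, 2 late synthesis enzymes and the export branch gene Lpcat3. RefSeq promoters on build GRCr8, running from 250 bases before to 50 after the transcription start, were matched by symbol for 28 of the 33 genes. The 5 without an entry were Stard4, Abcg1, Pmvk, Fdft1 and Sqle. Capitals mark the CCAAT box (ATTGG on the other strand), the letters bound by NF-Y, a partner of SREBP2, and the E-box CACGTG. The Hsd17b7 promoter lies at chr13:84722705-84723004 (minus strand), that of Sc5d at chr8:51538228-51538527 (minus strand) and that of Insig1 at chr4:8057720-8058019 (minus strand). The window matched to Insig2 lies at chr13:35040049-35040348 (minus strand), and the Lpcat3 promoter lies at chr4:159154440-159154739 (plus strand). The Insig2 window holds letters that read like the end of an intron ahead of its CCAAT box. Whether this window is a promoter was not tested.
Hsd17b7: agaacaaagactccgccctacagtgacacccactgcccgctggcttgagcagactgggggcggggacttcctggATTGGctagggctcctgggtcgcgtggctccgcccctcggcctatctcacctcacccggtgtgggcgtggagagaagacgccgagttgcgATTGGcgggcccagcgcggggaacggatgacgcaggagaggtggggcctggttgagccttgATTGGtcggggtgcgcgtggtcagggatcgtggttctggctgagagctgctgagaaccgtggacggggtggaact
Sc5d: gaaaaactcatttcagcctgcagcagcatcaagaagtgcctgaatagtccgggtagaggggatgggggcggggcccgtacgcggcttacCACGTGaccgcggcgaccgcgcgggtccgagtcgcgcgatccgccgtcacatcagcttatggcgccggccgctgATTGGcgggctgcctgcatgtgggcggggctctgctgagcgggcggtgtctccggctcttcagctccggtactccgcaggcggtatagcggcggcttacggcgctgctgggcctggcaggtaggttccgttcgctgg
Insig1: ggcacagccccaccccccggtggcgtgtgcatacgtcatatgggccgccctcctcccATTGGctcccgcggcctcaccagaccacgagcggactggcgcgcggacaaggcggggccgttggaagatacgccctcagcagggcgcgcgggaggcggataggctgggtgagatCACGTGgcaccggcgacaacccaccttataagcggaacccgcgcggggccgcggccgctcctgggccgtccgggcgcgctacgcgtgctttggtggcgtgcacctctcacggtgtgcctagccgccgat
Insig2: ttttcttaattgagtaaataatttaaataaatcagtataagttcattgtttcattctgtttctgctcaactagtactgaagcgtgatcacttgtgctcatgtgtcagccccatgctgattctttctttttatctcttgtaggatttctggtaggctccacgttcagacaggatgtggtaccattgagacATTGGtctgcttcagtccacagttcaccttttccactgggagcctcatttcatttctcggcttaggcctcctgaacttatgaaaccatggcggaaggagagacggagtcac
Lpcat3: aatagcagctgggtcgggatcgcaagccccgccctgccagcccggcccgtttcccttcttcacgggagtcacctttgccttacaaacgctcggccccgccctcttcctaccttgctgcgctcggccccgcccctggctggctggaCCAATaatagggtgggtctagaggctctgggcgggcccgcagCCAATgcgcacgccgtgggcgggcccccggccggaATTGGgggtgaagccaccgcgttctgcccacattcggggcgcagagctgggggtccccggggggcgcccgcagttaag

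Hsd17b7 and Lpcat3 each carried 3 CCAAT boxes in these 300 bases, and Sc5d, Insig1 and Insig2 carried 1 each. The first bases of the Hsd17b7 boxes lay at -176, -86 and -25 from the start, and those of Lpcat3 at -105, -63 and -28. Insig1 had an E-box at -79 and Sc5d one at -161. Of the 28 genes, 20 (71.4%) held a CCAAT box on either strand in at least 1 promoter, the Insig2 window included. The same box stood in 37.5% of all 33469 promoters of this length and 36.9% of the 11535 promoters of tested genes. Shares of the list count genes and the other shares count promoters, and Srebf1 had more than 1 promoter. An E-box stood in 4 of 28 (Abca1, Insig1, Sc5d and Scap, 14.3%), against 6.42% of all promoters and 8.73% of those of tested genes. A strict sterol element, TCACNCCAC, was in none of the 28 and in 1.12% of all promoters, and a strict liver X receptor element (DR4, searched as GGTCA, any 5 bases and GGTCA) was in none of the 28 and in 0.0717%. All motifs were searched on both strands. In the printed sequences the CCAAT boxes and E-boxes share no bases. Genes with a CCAAT box included Insig1, Hsd17b7 and Sc5d, which fell in high smoke (Cyp51, which also fell, had none), Lpcat3, Insig2 and Npc2, which rose, and Hmgcs1, Idi1 and Srebf2, which passed the test in neither direction.

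Expression is given as normalized counts, the reads of a gene divided by a size factor for its library. These values carry no correction for gene length, so levels are compared between libraries for 1 gene and not between genes. Differences are on the scale of log2(normalized count + 1), from 1 limma fit over the 3 groups, and p-values are adjusted by the Benjamini-Hochberg method over 14414 genes with a threshold of 0.05. The libraries held 8484445 to 12055527 read equivalents. On the first principal component of all genes (19.7% of the variance), the scores of high smoke replicates 1, 3 and 7 were 51.5, 41.7 and 36.5, and the other 4 high smoke libraries lay at 0.305 to 8.77. The high smoke against air values without these 3 libraries are therefore given for the genes that passed, for counts of genes called and for differences that changed sign. These 3 were picked from the same data, for scores far from those of air (-21.6 to -0.291). Leaving them out leaves 4 high smoke libraries and lowers the share of all genes called from 16.3% to 0.861%. A call lost in that fit is therefore not an independent test of a gene. Low smoke replicates 1 to 4 scored -12.7 to -10.3 on the first component, and low smoke replicates 5 to 8 scored -3.40 to -1.81. Air replicate 3 scored 44.6 on the second component, where all other libraries scored at most 16.0. The lung labels were checked against cell markers: summed alveolar type 2 markers were at 190600 to 240600 in air, while albumin, a liver product, had a median of 3.30 in air and reached 84.3 in 1 high smoke library.

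In high smoke against air, 9 of the 33 cholesterol genes passed the test (27.3%), against 16.3% of all genes tested. Of these, 6 fell (18.2% of the list, against 7.05% of all genes) and 3 rose (9.09%, against 9.21%). This list and the lists set beside it were chosen with earlier results of these data known. Their shares, here and below, are therefore descriptions and not tests of a list. The genes that fell were Hsd17b7, Sqle, Cyp51, Sc5d, Insig1 and Stard4, and the genes that rose were Insig2, Npc2 and Lpcat3. The list as a whole stayed centred near 0: its median difference was -0.0047, against -0.0021 over all genes tested, with 17 genes below and 16 above. None of the 33 had high smoke and air ranges that did not overlap, against 1.87% of all genes tested. Without high smoke replicates 1, 3 and 7, 2 of the 33 passed, Hsd17b7 and Lpcat3, against 0.861% of all genes tested in that fit. A fit of only the compared groups and the rank-sum test did not call Sqle, Cyp51, Insig2 or Npc2, and the rank-sum test also did not call Hsd17b7, Sc5d or Stard4. Array weights did not call Cyp51 or Insig2, scaling to the same total did not call Insig2 or Npc2, and Insig2 was also not called with no level filter or under scaling to the same upper quartile. In lung tissue, fewer cells of a type and less RNA per cell cannot be told apart.

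**Figure D1:**
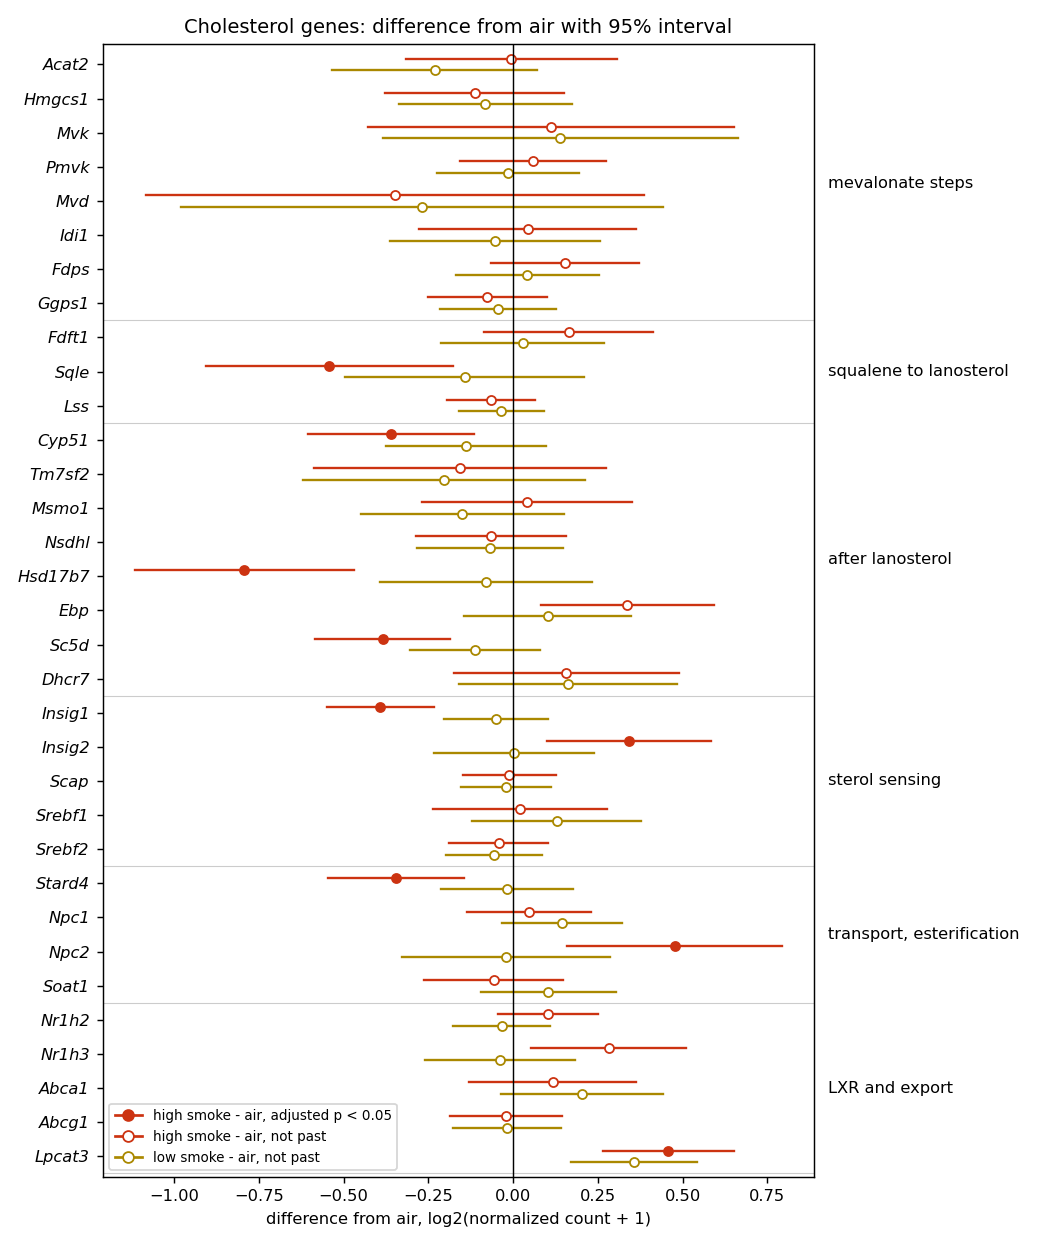
Difference from air for each of the 33 genes on the log2(normalized count + 1) scale (horizontal axis) with its 95% interval, by role, for high smoke (red) and low smoke (ochre); filled points passed adjusted p of 0.05. Filled points are found after squalene and in sensing, transport and export, and none is found among the 8 mevalonate genes or in low smoke.

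None of the 8 mevalonate genes passed the test in high smoke against air. Their differences ran from -0.35 for Mvd to 0.15 for Fdps, with a median of 0.02. Fdps, which makes farnesyl pyrophosphate and had the smallest p of the group, was at 288 to 479 in air (median 322), 289 to 423 in low smoke (median 354) and 313 to 453 in high smoke (median 355). The 3 ranges overlapped almost throughout, and the difference of 0.15 (SE 0.11) had an adjusted p of 0.346. The highest air value of Fdps was that of air replicate 3.

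Hmgcs1, which encodes HMG-CoA synthase, averaged 1146 ± 281 in air and 1041 ± 146 in high smoke (SD, n = 7 each). Its difference was -0.11 with a 95% interval of -0.38 to 0.15. Among the other mevalonate genes, Idi1 differed by 0.04 (-0.12 without high smoke replicates 1, 3 and 7), Pmvk by 0.06, Mvk by 0.11, Ggps1 by -0.08 and Acat2 by -0.0047 (0.11 without those 3 libraries). The values of Mvd and Mvk were low, at 3.64 to 21.0 and 4.49 to 24.6 over all libraries, down to 4 reads. The interval of Mvd spanned -1.08 to 0.39.

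Between farnesyl pyrophosphate and lanosterol, 1 of 3 genes passed. Sqle encodes squalene epoxidase, which adds the first oxygen of the sterol route. Its normalized count was 154 to 358 in air (median 228), 162 to 306 in low smoke (median 199) and 110 to 220 in high smoke (median 162). All 7 high smoke libraries lay below the air mean, but only 2 lay below every air library, and the air group itself spread widely around a mean of 243 ± 73.4 (SD, n = 7). Sqle fell by 0.54 on the log2 scale (SE 0.18, adjusted p = 0.0376). The call was lost without any 1 of air replicates 1, 2, 3 or 6 or high smoke replicates 3, 6 or 7, where the adjusted p reached 0.0899. Without high smoke replicates 1, 3 and 7 together the difference was -0.52 with an adjusted p of 0.264. The enzymes on both sides of it gave 0.16 (Fdft1, squalene synthase, adjusted p = 0.375) and -0.07 (Lss, lanosterol synthase, adjusted p = 0.512). The interval of Lss, -0.20 to 0.06, was the narrowest among the 19 synthesis enzymes.

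After lanosterol, 3 of 8 genes fell and none rose. The largest difference of all 33 belonged to Hsd17b7, a 3-keto reductase that completes the removal of the C4 methyl groups. Its values were 87.7 to 148 in air (median 116), 86.7 to 133 in low smoke (median 113) and 42.6 to 98.8 in high smoke (median 65.8). In high smoke, 5 of 7 libraries lay below every air library and 5 below every low smoke library, and high smoke replicates 3 and 4 lay within both ranges. Hsd17b7 was 0.577-fold of air, a fall of 0.79 on the log2 scale with an interval of -1.12 to -0.47 (adjusted p = 0.00199, n = 7 and 7). It stayed past the threshold without any single library, at an adjusted p of 0.000424 to 0.00607, and without high smoke replicates 1, 3 and 7 (-0.75, adjusted p = 0.0346). The rank-sum test adjusted over all genes did not call it.

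In the deposited annotation, on build rn6, Hsd17b7 spans chromosome 13 from 88288046 to 88307989 on the minus strand, inside LOC100366054 on the plus strand. That row averaged 0.975 in air and 0.456 in high smoke, close to 0. Whether counting used strand is not given in the sources used here.

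Sc5d, which introduces the C5 double bond of the sterol ring, was at 773 to 1067 in air (median 952), 747 to 1025 in low smoke (median 841) and 565 to 976 in high smoke (median 682). In high smoke, 5 of 7 libraries lay below every air library, while high smoke replicate 4 lay above the air median. Sc5d fell by 0.38 on the log2 scale (SE 0.10, adjusted p = 0.00942). The adjusted p was 0.000802 to 0.0283 over the fits that left out 1 library. Without high smoke replicates 1, 3 and 7 it was 0.218, with a difference of -0.29.

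Cyp51, the lanosterol demethylase that opens this stretch, was at 677 to 1050 in air (median 762), 512 to 897 in low smoke (median 713) and 462 to 751 in high smoke (median 617). In high smoke, 5 of 7 libraries lay below every air library and all 7 lay below the air mean. Cyp51 fell by 0.36 on the log2 scale (SE 0.12, adjusted p = 0.0402). The call was lost without any 1 of air replicates 1, 2, 3 or 6 or high smoke replicates 3, 5, 6 or 7, where the adjusted p reached 0.108. It was also lost without high smoke replicates 1, 3 and 7 (-0.27, adjusted p = 0.350). Air replicate 3 held the highest air value of both Cyp51 and Sqle, and without it the differences were -0.29 (adjusted p = 0.0783) and -0.44 (adjusted p = 0.0742).

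The other late enzymes did not pass in either direction. Ebp, the sterol isomerase, pointed the other way, at 70.7 to 119 in air and 86.2 to 149 in high smoke, with 3 of 7 high smoke libraries above every air library. Its difference of 0.34 (SE 0.12) had an adjusted p of 0.0644 and shrank to 0.12 without high smoke replicates 1, 3 and 7 (adjusted p = 0.722). It passed in 2 of the 22 fits that left out 1 library, those without air replicate 6 or high smoke replicate 4. Msmo1, the C4 methyl oxidase, differed by 0.04 (-0.21 without high smoke replicates 1, 3 and 7), and Nsdhl, which works between Msmo1 and Hsd17b7, by -0.07. Dhcr7, the last reductase, differed by 0.16 (-0.06 without those 3 libraries) and Tm7sf2 by -0.16. Over the 19 synthesis enzymes of the list, 4 fell (21.1%, against 7.05% of all genes) and none rose, with a median difference of -0.07. The count that fell was 1 without high smoke replicates 1, 3 and 7 (against 0.181% of all genes), and by the rank-sum test it was 0 (against 1.93% of all genes).

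**Figure D2:**
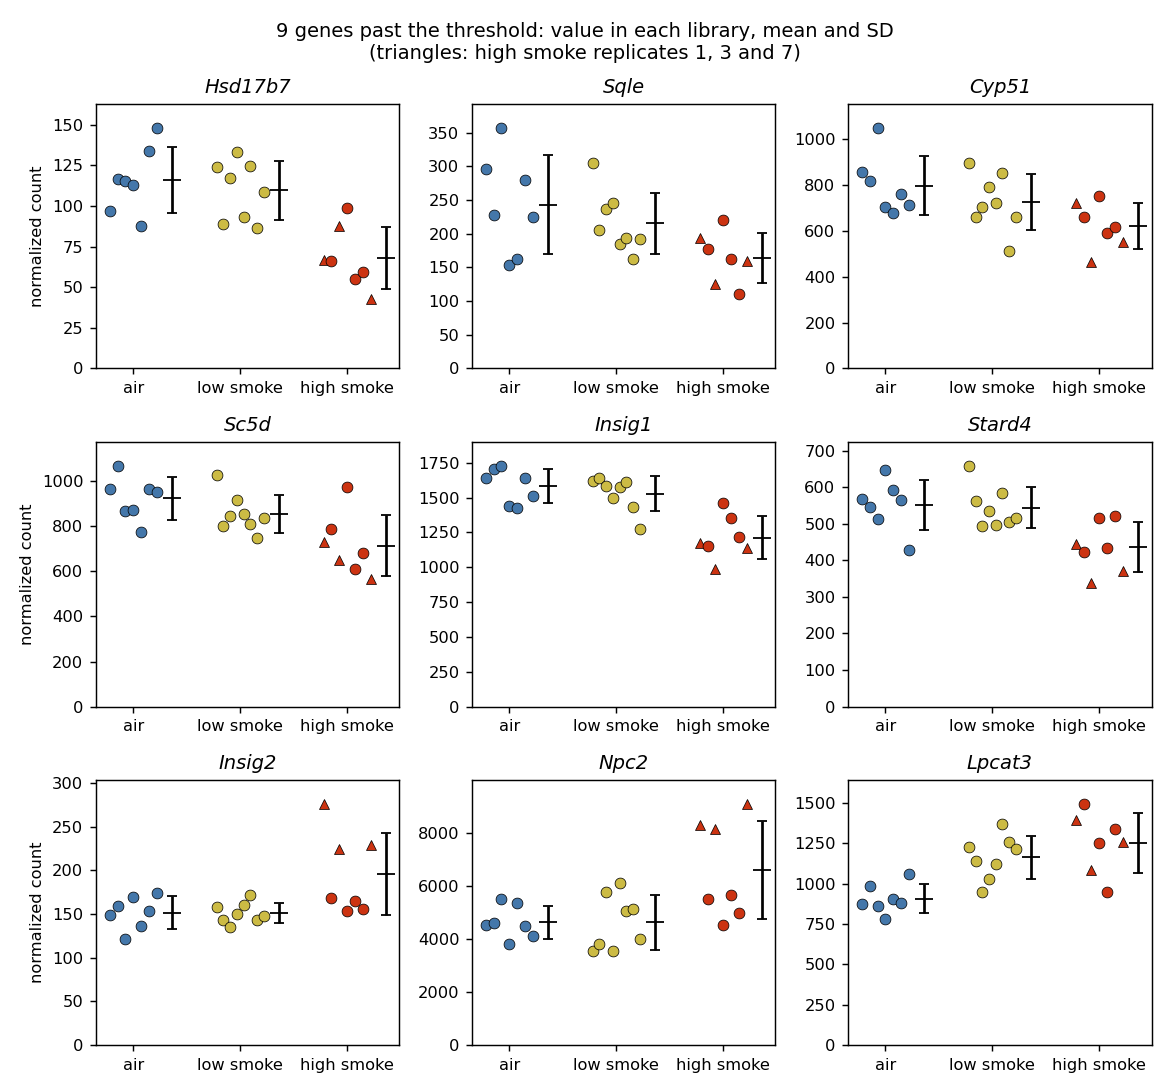
Normalized count (vertical axis, from 0) in each air (blue), low smoke (yellow) and high smoke (red) library for the 9 genes past the threshold; bars give mean and SD, and triangles mark high smoke replicates 1, 3 and 7. The triangles of Insig2 and Npc2 stand above all other points, whereas those of Lpcat3 lie among the other high smoke points and those of Hsd17b7 include the lowest.

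Of the 5 sterol sensing genes, Insig1 fell, Insig2 rose and the other 3 did not pass. Insig1 encodes a retention protein for SCAP and is itself a classical target of SREBP2. Its normalized count was 1425 to 1727 in air (median 1638), 1273 to 1638 in low smoke (median 1580) and 987 to 1461 in high smoke (median 1176). In high smoke, 6 of 7 libraries lay below every air library, and only replicate 4 reached into the air range. Insig1 was 0.762-fold of air, a fall of 0.39 on the log2 scale with an interval of -0.55 to -0.23 (adjusted p = 0.00192). It was past the threshold without any single library and under every other planned processing, the rank-sum test included. Without high smoke replicates 1, 3 and 7 the difference was -0.29, with an adjusted p of 0.0903.

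Insig2 encodes the second retention protein. It was at 121 to 174 in air (median 153), 135 to 172 in low smoke (median 149) and 153 to 276 in high smoke (median 168). High smoke replicates 1, 3 and 7 held 276, 225 and 229, above every air and low smoke library, and the other 4 held 153 to 168, inside the air range. Insig2 rose by 0.34 (SE 0.12) with an adjusted p of 0.0484, close to the threshold. The call held in 5 of the 22 fits that left out 1 library (without air replicate 7 or high smoke replicates 2, 4, 5 or 6) and was lost in the other 17, with adjusted p-values from 0.0219 to 0.129. Without the 3 high libraries the difference was 0.09 with an adjusted p of 0.741.

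The transcripts of the regulators themselves showed no difference past the threshold. Srebf2, which encodes SREBP2, averaged 5448 ± 495 in the 7 air libraries (SD), 5228 ± 330 in the 8 of low smoke and 5297 ± 591 in the 7 of high smoke. Its high smoke difference was -0.04, with an interval of -0.19 to 0.10. Scap differed by -0.01, within -0.15 to 0.13, and Srebf1, which encodes the fatty acid directed SREBP1, by 0.02, within -0.24 to 0.28. SREBP activity depends on cleavage of the protein, which these values do not measure.

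Among the 4 transport and esterification genes, Stard4 fell and Npc2 rose. Stard4 encodes a soluble carrier that moves cholesterol between membranes. It was at 428 to 646 in air (median 566), 493 to 658 in low smoke (median 524) and 338 to 522 in high smoke (median 432). All 7 high smoke libraries lay below the air median and 3 of 7 below every air library. Stard4 fell by 0.35 on the log2 scale (SE 0.10, adjusted p = 0.0180). The call was lost without high smoke replicate 3 (adjusted p = 0.0518) and without high smoke replicates 1, 3 and 7 (-0.22, adjusted p = 0.342).

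Npc2 encodes the lysosomal protein that hands cholesterol to the membrane protein NPC1. It was at 3806 to 5490 in air (median 4511), 3534 to 6097 in low smoke (median 4521) and 4536 to 9078 in high smoke (median 5654). High smoke replicates 1, 3 and 7 held 8311, 8141 and 9078, and the other 4 held 4536 to 5654, with 2 of them just above the highest air library. Npc2 rose by 0.48 (SE 0.15, adjusted p = 0.0357). The call was lost without any 1 of air replicates 1, 2, 4, 6 or 7 or high smoke replicates 1, 3 or 7, where the adjusted p reached 0.0947, and when libraries were scaled to the same total. Without high smoke replicates 1, 3 and 7 together the difference was 0.17 (adjusted p = 0.650). Its partner Npc1 differed by 0.05, within -0.14 to 0.23, and Soat1, which esterifies cholesterol for storage, by -0.06, within -0.26 to 0.15.

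**Figure D3:**
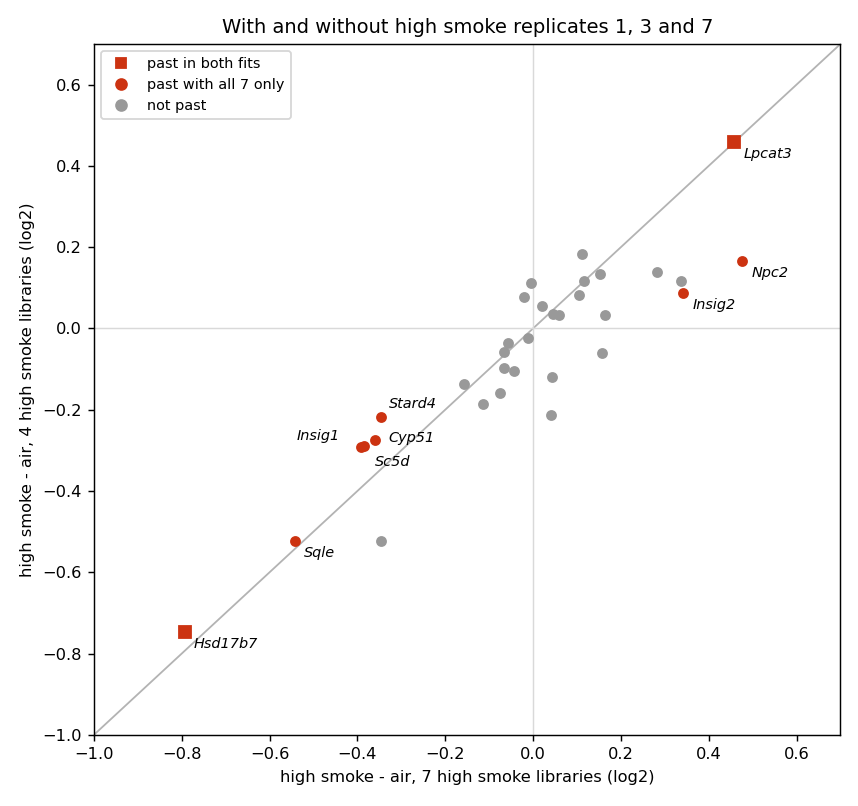
Difference between high smoke and air (log2) for the 33 genes with all 7 high smoke libraries (horizontal axis) and with the 4 left after replicates 1, 3 and 7 were set aside (vertical axis); the line marks equal values and squares passed in both fits. Hsd17b7 and Lpcat3 lie near the line, and Npc2 and Insig2 lie well below it, at 0.17 and 0.09.

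Lpcat3 was the gene of the liver X receptor and export branch that passed, 1 of 5. It encodes a membrane acyltransferase that places polyunsaturated chains into phospholipids and is a known liver X receptor target. Its normalized count was 781 to 1061 in air (median 880), 947 to 1369 in low smoke (median 1178) and 948 to 1492 in high smoke (median 1261). In low smoke 6 of 8 libraries, and in high smoke 6 of 7, lay above every air library. All 15 smoke libraries lay above the air mean.

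In high smoke Lpcat3 was 1.37-fold of air, a difference of 0.46 with an interval of 0.27 to 0.65 (adjusted p = 0.00243). It passed in every fit that left out 1 library, under every other planned processing, and without high smoke replicates 1, 3 and 7 (0.46, adjusted p = 0.0481). On build rn6 it spans chromosome 4 from 157181795 to 157222997 on the plus strand and shares 613 bases at its end with Emg1, whose values were 242 ± 19.3 in air and 258 ± 31.1 in high smoke (SD, n = 7 each).

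The receptors and transporters of this branch did not pass. Nr1h3, the liver X receptor alpha, was at 212 to 272 in air, 186 to 293 in low smoke and 210 to 397 in high smoke. In high smoke 5 of 7 libraries lay above every air library and 1 below, and the difference of 0.28 (SE 0.11) had an adjusted p of 0.0816. It was 0.14 without high smoke replicates 1, 3 and 7. Nr1h2, the liver X receptor beta, differed by 0.10, within -0.04 to 0.25. Abca1, the transporter that loads cholesterol onto apolipoproteins, differed by 0.12, within -0.13 to 0.36, and Abcg1 by -0.02, within -0.19 to 0.14 (0.08 without high smoke replicates 1, 3 and 7).

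**Figure D4:**
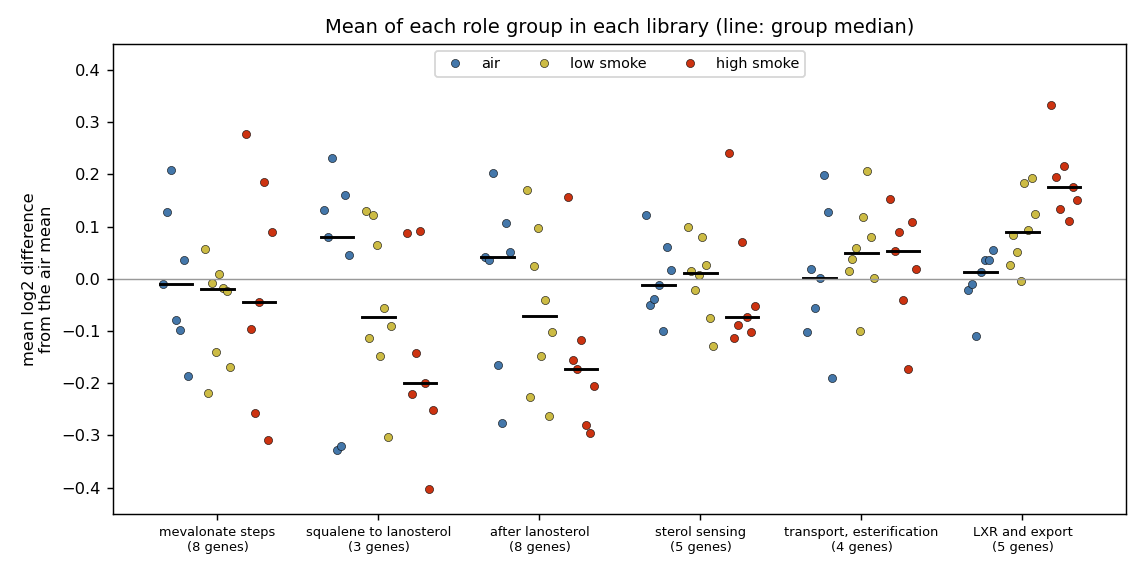
Mean log2 difference from the air mean (vertical axis) over the genes of each role group, 1 point for each library, with the median of each group of libraries as a line. In the LXR and export group all 7 high smoke points lie at 0.111 to 0.334, above every air point, and in the other role groups the high smoke and air points overlap. Of the 5 genes in the LXR and export group only Lpcat3 passed the test. How often means of other gene groups separate was not computed.

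The mean of the 5 export branch genes, each taken as its difference from the air mean, spanned -0.109 to 0.0546 over the air libraries, -0.0047 to 0.193 over those of low smoke and 0.111 to 0.334 over those of high smoke. Lpcat3 contributed the largest single difference, 0.46, to the high smoke mean. The other 4 genes differed by -0.02 (Abcg1) to 0.28 (Nr1h3) and did not pass. In low smoke the mean was at most 0.0845 in replicates 1 to 4 and at least 0.0937 in replicates 5 to 8. The same mean over the 8 enzymes after lanosterol had medians of 0.0412 (air), -0.0709 (low smoke) and -0.172 (high smoke), and 6 of 7 high smoke libraries lay below 0. High smoke replicate 1 was the exception, at 0.157. Over the mevalonate genes the medians were -0.0092, -0.02 and -0.0453, and high smoke spread from -0.309 to 0.278. Role group means are a description and carry no test.

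Low smoke against air called none of the 33 genes, and 0% of all genes tested, at an adjusted p below 0.05. At an unadjusted p below 0.05 there was 1 of the 33, Lpcat3, and 923 of all 14414 genes, and the rank-sum test called 0 of both. Lpcat3 stood 0.36 above air, within 0.17 to 0.54 (SE 0.09, unadjusted p = 0.000572, adjusted p = 0.462). Its rank by p was 15 of 14414. Abca1 stood at 0.20, within -0.03 to 0.44, Npc1 at 0.14 and Acat2 at -0.23, none past the threshold. Of the 33 differences, 22 were below 0 and 11 above, with a median of -0.03, and 14 of the 19 synthesis enzymes (73.7%) were below 0, none with an unadjusted p below 0.05. Of all genes 48.9% were below 0, and 59.8% were when libraries were scaled to the same total. Insig1 lay at -0.05 and Hsd17b7 at -0.08, with upper limits of 0.10 and 0.23. No gene of the list had low smoke and air ranges that did not overlap, against 0.0416% of all genes tested.

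High smoke against low smoke called 4 of the 33 genes (12.1%), against 6.78% of all genes tested, 3 lower (against 2.98%) and 1 higher (against 3.8%). None had ranges that did not overlap, against 0.694% of all genes. Hsd17b7 fell by 0.71 on the log2 scale (SE 0.15, adjusted p = 0.0167), Insig1 fell by 0.34 (SE 0.07, adjusted p = 0.0174) and Stard4 fell by 0.33 (SE 0.09, adjusted p = 0.0390). Npc2 rose by 0.50 (SE 0.15, adjusted p = 0.0450). The calls were lost without high smoke replicate 1 or 7 for Hsd17b7 (adjusted p up to 0.0545) and without high smoke replicate 1, 3 or 7 for Insig1 (up to 0.0545). For Stard4 they were lost without low smoke replicate 1, 2, 4 or 6 or high smoke replicate 1, 3 or 7 (up to 0.107). For Npc2 they were lost without air replicate 1, 2 or 6, low smoke replicate 1, 2, 4, 6 or 8, or high smoke replicate 1, 3 or 7 (up to 0.123). Calls over all genes also fell in these fits. Without high smoke replicate 1, 3 or 7, 0.243%, 0.354% and 0.201% of all genes passed, against 6.78% with all libraries. Without low smoke replicate 1, 2, 4, 6 or 8 the share was 2.06% to 5.13%. With replicates 1, 3 and 7 set aside together none of the 33 passed, nor did any of 14394 genes (0%). An unadjusted p below 0.05 was found in that fit for 2 of the 33 and for 939 of the 14394 genes. Lpcat3 differed by 0.10 between the smoke groups, within -0.08 to 0.29 (adjusted p = 0.507), so a difference between low and high smoke was not resolved for it. Both smoke groups are compared with the same air libraries, and high smoke enters 2 of the comparisons, so the results share samples.

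**Figure D5:**
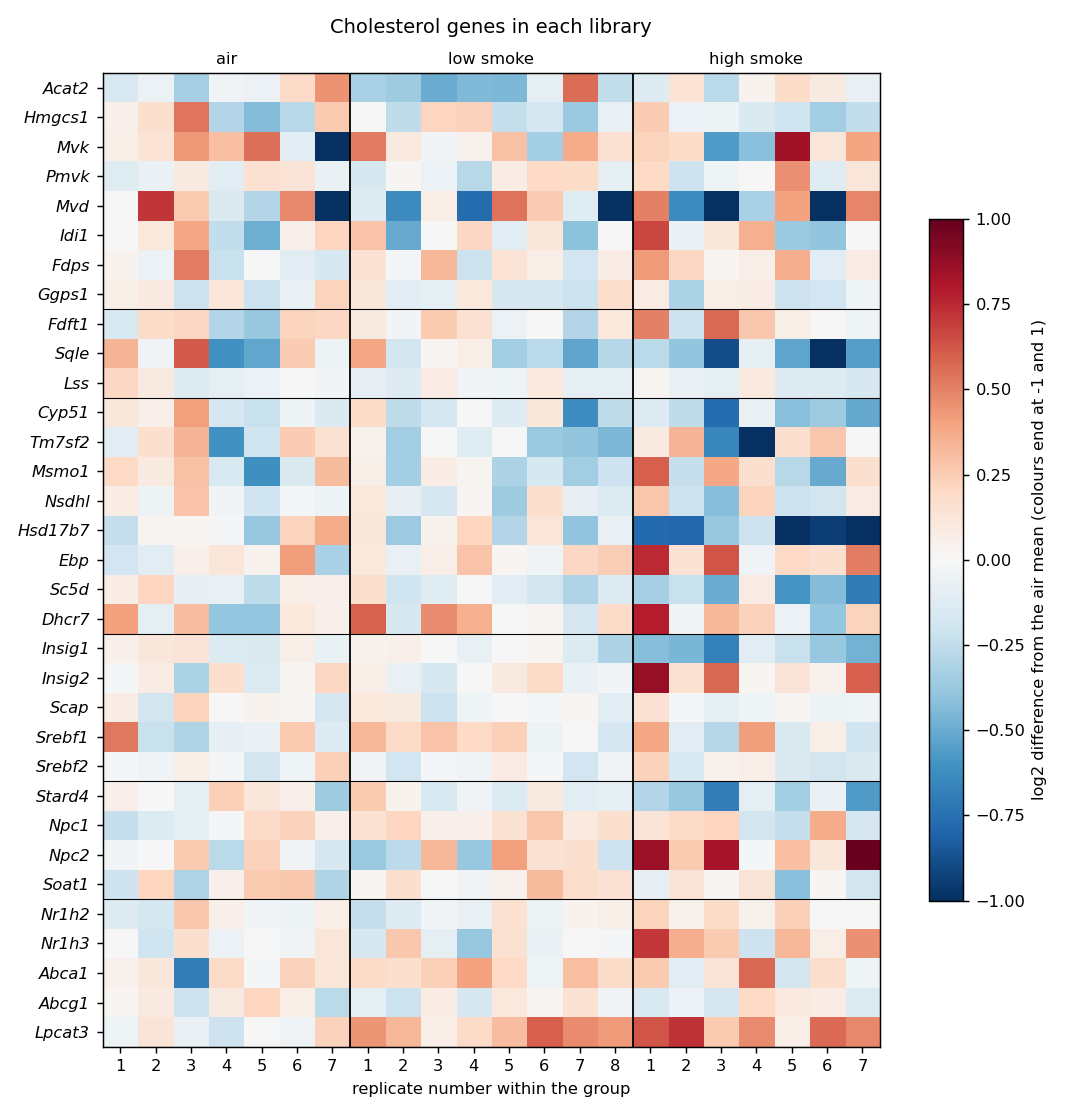
Log2 difference from the air mean for each of the 33 genes (rows, by role) in each of the 22 libraries (columns, by replicate number), with colours ending at -1 and 1. Hsd17b7 and Insig1 are blue in all 7 high smoke columns, Lpcat3 is red in all smoke columns, and Insig2 and Npc2 are dark red in high smoke columns 1, 3 and 7.

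Other genes of the pathway were taken from lists of 85 symbols, of which 82 were in the table and 77 were tested. In high smoke against air 11 rose and 4 fell, 19.5% of those tested, against 16.3% of all genes. None of the 77 passed without high smoke replicates 1, 3 and 7, against 0.861% of all genes in that fit. There 10 of the 77 had an unadjusted p below 0.05, and so did 1984 of all 14394 genes. In low smoke against air none passed (0% of all genes), and 7 of the 77 had an unadjusted p below 0.05, against 923 of all 14414 genes.

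Of the 16 tested genes for synthesis and isoprenoid branches, 3 rose and none fell: Fnta, a subunit of farnesyl transferase (0.46, adjusted p = 0.00171), Cyb5r3, which feeds electrons to late sterol enzymes (0.22), and Dhdds, which makes the dolichol chain (0.21). These differences were 0.30, 0.26 and 0.19 without high smoke replicates 1, 3 and 7.

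Of the 16 genes for sensing and degradation, 2 rose and 1 fell. Those past the threshold included Nfyb, a subunit of the factor that binds CCAAT boxes, which rose by 0.32, and Trib1, which fell by 0.44 on the log2 scale. They stood at 0.08 and -0.13 without high smoke replicates 1, 3 and 7. Of the 20 for uptake and lysosomal handling, 3 rose and 2 fell. Mylip, a ubiquitin ligase induced by liver X receptors, rose by 0.42, and the carriers Stard3 and Gramd1c rose by 0.40 and 0.38. Gramd1b fell by 0.40 on the log2 scale and Osbp, an oxysterol-binding exchanger, fell by 0.20. Mylip stood at 0.25, Stard3 at 0.27, Gramd1c at 0.24, Gramd1b at -0.27 and Osbp at -0.14 without those 3 libraries.

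Of the 15 genes for export and oxysterols, Apoe rose from 243 ± 33.4 in air to 338 ± 77.4 in high smoke (SD, n = 7 each), a difference of 0.46 (adjusted p = 0.0237), and Pltp, which transfers phospholipids, rose by 0.39. Of the 10 tested fatty acid genes under SREBP control, Acly rose by 0.39, Me1 fell by 0.44 on the log2 scale, and Fasn differed by -0.05. Apoe stood at 0.26, Pltp at 0.31, Acly at 0.23, Me1 at -0.35 and Fasn at 0.07 without high smoke replicates 1, 3 and 7. In high smoke against low smoke, 5 of the 77 passed (6.49%, against 6.78% of all genes) and 0 did without those 3 libraries (0% of all genes). Of the 5, Fnta, Nfyc and Smpdl3a rose, and Trib1 and Gramd1b fell.

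Some markers of lung cell types passed the test in high smoke against air. Over the lists given here the share called ran from 12.5% (macrophage and monocyte) to 42.9% (endothelial), against 16.3% of all genes. Of 10 alveolar type 2 markers, Sftpc, Sftpd and Napsa rose and Lpcat1 fell in high smoke against air, and the summed markers were at 190600 to 240600 in air and 232400 to 301400 in high smoke. Of 8 macrophage and monocyte markers Cd68 fell and none rose (sums of 60060 to 75670 and 64600 to 95060), and of 6 alveolar type 1 markers 2 rose (45060 to 54070 and 53840 to 64380). Of 7 endothelial markers 2 rose and 1 fell (34650 to 40480 and 34840 to 42030), and of 6 lipofibroblast markers 1 rose (3511 to 4482 and 3593 to 5114). Of 5 neutrophil markers tested 1 rose, with sums over 6 genes of 482 to 893 in air and 489 to 1145 in high smoke. Of 5 red cell markers 2 rose, with sums of 4822 to 7148 in air and 7091 to 14580 in high smoke, and 5 of 13 mitochondrial genome transcripts fell (113900 to 153800 and 79200 to 156100). Of all genes 9.21% rose and 7.05% fell. Without high smoke replicates 1, 3 and 7, 1 type 2 marker rose and none fell, against 0.681% and 0.181% of all genes. The other marker lists and the mitochondrial transcripts had 0 calls in that fit. No marker passed in low smoke against air. The part of these shifts in the results for the cholesterol genes was not tested.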

How the data were processed

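RNA of whole lung pieces (about 35 mg, RNA integrity number of at least 9.0 per the labels' protocols) was sequenced on a NextSeq 500. Per the submitters' processing notes, the authors used STAR 2.7.3a, the rat build rn6, Partek and DESeq2, with no roles or settings given. The authors deposited 1 table of normalized counts (unit: signal), in which the counts of each library are scaled by its own size factor. Between 80.7% and 82.8% of values under 200 reads lay within 0.02 of whole reads, so whole counts were not recovered and no count model was used. Depth limits the genes with few reads most, and no counting interval was computed.

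From this table, log2(value + 1) was taken for the 14414 of 19249 genes with a mean of at least 10. This scale understates changes of low genes. One limma 3.58.1 fit in R 4.3.3 (trend on, robust off) covered the 3 groups, with two-sided tests, Benjamini-Hochberg adjustment and a threshold of 0.05. Samples were grouped by the treatment label, 1 rat each. The fit was tested on simulated data with few genes changed and independent noise for each gene. In high smoke against air it recovered 29.9% of 1.25-fold, 55.2% of 1.5-fold and 89.4% of 2-fold changes. For low smoke against air the shares were 23.9%, 56.7% and 90.9%. A gene that did not pass may therefore still differ. Motifs were searched and figures drawn with Python 3.11.15, and RefSeq promoters are on GRCr8 while table coordinates are on rn6.

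The members and lists were chosen with earlier results of these data known. Library ranges are given for members past the threshold in any comparison and for the member with the smallest p in each role group. Of the other lists, genes past the threshold are named, except that some results are not reported here, and Fasn was added for context after its values were seen. Alternatives were other pseudocounts, level filters, 3 scalings, robust variances, array weights, fits of only the groups compared, a two-sided rank-sum test and leaving out each library. The rank-sum test was exact for genes without tied values and approximate for the others. Leaving out high smoke replicates 1, 3 and 7 together was added after the data were seen.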

Additional observations from a re-analysis of the deposited data

Results flagged for a closer look

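In 4 of 99 groups of libraries (33 genes in 3 groups), 1 library stood far from the rest of its group by Dixon's criterion, which chance meets in about 1 in 20 groups. Fdps was at 478.5 in air replicate 3, with the other air libraries at 287.8 to 344.3. Abca1 was at 2150.0 in the same library, with the others at 3440 to 4073. Mvk, a gene of few reads, was at 4.49 in air replicate 7, with the others at 12.2 to 19.94. Acat2 was at 70.35 in low smoke replicate 7, with the others at 33.34 to 44.23. None of these 4 genes passed the test in any comparison or in any fit that left out 1 library.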

How the results depend on the processing

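In high smoke against air the 9 genes called became 5 when only the compared groups were fitted, 2 by the rank-sum test and 2 without high smoke replicates 1, 3 and 7, and ranged from 4 to 11 over the fits that left out 1 library. Calls over all genes moved as well. The share was 16.3% in the main fit, 9.46% with only the compared groups and 0.861% without those 3 libraries. It was 10.1% to 19.9% without 1 library. The 3 that rose became 1 under scaling to the same total, with only the compared groups, by the rank-sum test and without those 3 libraries (1 to 5 without 1 library). The 6 that fell became 1 by the rank-sum test and 1 without those 3 libraries (3 to 6 without 1 library). In high smoke against low smoke the 4 called became 0 by the rank-sum test and 0 without those 3 libraries (0 to 7 without 1 library). Of all genes 6.78% passed in the main fit of that comparison, 0% without those 3 libraries and 0.201% to 11.5% without 1 library. There the 1 that rose became 0 with no level filter, scaling to the same total, array weights, only the compared groups, the rank-sum test or without those 3 libraries (0 to 3 without 1 library), and the 3 that fell became 0 by the rank-sum test and 0 without those 3 libraries (0 to 4 without 1 library). By the rank-sum test 5.18% of all genes passed in high smoke against air and 1.27% in high smoke against low smoke. With fewer libraries each fit has less information, and the rank-sum test has few possible p-values in groups of this size. Beyond that the cause was not tested. Scaling to the same total moved all genes in high smoke against air from 1327 up and 1016 down to 894 up and 1797 down. Low smoke against air called 0 of the 33 under every setting tried. Near 0, 3 of its differences changed sign: Insig2 from 0.0026 to -0.0323 (same total), -0.0018 (same upper quartile) and -0.0258 (array weights), and -0.0496 to 0.0371 without 1 library; Npc2 from -0.0204 to 0.0185 (array weights), and -0.0821 to 0.0303 without 1 library; and Stard4 from -0.0170 to between -0.0762 and 0.0228 without 1 library. No paired analysis was possible because replicates were numbered here in accession order and the labels pair no rats.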
